A study of Mus musculus with 4 samples.

Results

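The CXC chemokines are small secreted or membrane-anchored proteins that attract leukocytes. Brain microglia of this study were examined for 6 of them, namely Cxcl2, Cxcl9, Cxcl10, Cxcl11, Cxcl14 and Cxcl16. They were chosen by their gene symbols from a table of 19737 genes, and all 6 were among the 14058 genes with enough counts to be tested. Single-cell RNA-sequencing had been run on 74758 brain myeloid cells from 20 mice, in 5 groups of 4, with unique molecular identifiers (UMIs) counted for each gene in each cell. The mice were run in 4 pools, with every group represented by 1 mouse in each. The WT;TfRmu/hu mice received ATV:ISO or ATV:4D9, and the AppSAA;TfRmu/hu mice received ATV:ISO, 4D9 or ATV:4D9.

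All mice carried TfRmu/hu, a knock-in that puts the apical domain of the human transferrin receptor into the mouse receptor gene. AppSAA is a knock-in of a humanized App gene with familial Alzheimer's disease mutations. It is driven by the mouse App promoter. The antibody 4D9 binds mouse TREM2, a lipid receptor of microglia, and ATV:4D9 is 4D9 with a transferrin receptor binding site in its Fc domain. The 4D9 arm differed from the ATV:4D9 arm in its Fc variant as well as in this site. The isotype arm bears the label ATV-DNP02 and was read here as ATV:ISO. No 4D9 arm was present in WT;TfRmu/hu mice. Each mouse received 1 dose of 10 mg per kg by vein and was sampled after 24 hours. The reporting summary gives male mice of 8 months for the entry that names AppSAA, and mixed sex from 2 to 8 months for WT;TfRmu/hu mice of the whole study. Which of these entries covers the WT;TfRmu/hu mice here is not given in the sources used here, and 1 of them was recorded as female. The deposited texts name either CD11b alone or CD45 with CD11b for the cell sort, and either cortex or cortex with hippocampus for the tissue.

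Depth differed between the groups. The mice gave 17150296 to 102446549 UMIs each. The median UMIs per cell averaged 7566 and 9339 in the WT;TfRmu/hu and AppSAA;TfRmu/hu mice that received ATV:ISO and 9741 in those given 4D9, against 15338 and 15523 after ATV:4D9. The cells carried the markers of microglia, with P2ry12 in 98.6% of cells. Markers of other cell types varied widely. The neutrophil marker Ly6g was in 21 cells and the T cell marker Cd3e in 29, but Csf3r and S100a9 of the neutrophil list were in 77.8% and 7.90% of cells, Cd79b of the B cell list in 21.1%, Mbp and Mag of oligodendrocytes in 24.001% and 21.7%, Flt1 of endothelial cells in 10.3% and Pf4 of border macrophages in 9.19%. A total of 543 cell barcodes occurred in more than 1 pool, in 1089 cells. Below, CPM is the UMI count of a gene summed over the cells of a mouse. It is relative to all UMIs of the mouse, on the usual CPM scale, and scaled by TMM (trimmed mean of M-values). Levels given for a cluster are relative to the UMIs of the mouse in that cluster, without TMM scaling. Levels given for a whole pool are relative to the UMIs of its pooled cells, and these and the summed marker levels are not scaled either. Differences are log2 fold changes with their standard errors, from the quasi-likelihood test of edgeR with Benjamini-Hochberg adjusted p-values, called under 0.05. CPM levels are compared between groups for 1 gene at a time and not between genes.

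Chemokines of this family are grouped by the receptors they bind. Cxcl2 carries the ELR motif before its cysteines and attracts neutrophils through Cxcr2. Cxcl9, Cxcl10 and Cxcl11 lack this motif, are classically induced by interferons and bind Cxcr3 on activated T cells and natural killer cells. Cxcl16 is made as a membrane protein that binds Cxcr6 and can be shed by the proteases Adam10 and Adam17. Cxcl14 is an older, less well understood member whose receptor is not settled. In microglia Cxcl10 is widely used as a marker of the interferon response.

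The genes of the 3 Cxcr3 ligands lie together on chromosome 5. In the GRCm38 build with the GENCODE vM21 annotation, Cxcl9 is at chr5:92321347-92328079, Cxcl10 at chr5:92346638-92348889 and Cxcl11 at chr5:92359544-92365485, all on the minus strand and within 44.1 kb. Cxcl2 is at chr5:90903871-90905938 on the plus strand. Cxcl14 is at chr13:56288643-56296551 and Cxcl16 at chr11:70453983-70459984, both on the minus strand. Cxcl11 is annotated as a polymorphic pseudogene and the other 5 as protein coding. Whether Cxcl11 RNA gives a working protein in these mice was not tested. Its levels below are of RNA only and are not to be read as levels of a Cxcr3 ligand. Art3 overlaps Cxcl10 and Cxcl11 on the opposite strand, Gm2673 overlaps Cxcl11, and Zmynd15 overlaps Cxcl16. Whether the counting used the strand is not given in the sources used here.

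To show where the members could meet the interferon and NF-kB factors whose genes are described further on, the bases before the start site are given for the 4 members found in the RefSeq promoter table (GRCm38.p6). They were searched on both strands for the core of the interferon-stimulated response element (GAAANNGAAA), a kB-like motif (GGGANNNNCC) and the gamma-activated site (TTCNNNGAA), where N is any base. Capitals mark the matches, and all sequences run 5′ to 3′ on the strand of the gene. The windows are chr5:90903649-90903870 (plus, 222 bases) for Cxcl2, chr5:92328080-92328329 (minus) for Cxcl9, chr5:92348890-92349139 (minus) for Cxcl10 and chr13:56296552-56296801 (minus) for Cxcl14, the last 3 of 250 bases each.
Cxcl2: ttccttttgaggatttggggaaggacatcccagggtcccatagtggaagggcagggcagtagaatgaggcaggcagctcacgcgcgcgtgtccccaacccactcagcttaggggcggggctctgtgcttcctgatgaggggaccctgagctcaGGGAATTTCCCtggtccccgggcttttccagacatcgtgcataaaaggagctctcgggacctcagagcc
Cxcl9: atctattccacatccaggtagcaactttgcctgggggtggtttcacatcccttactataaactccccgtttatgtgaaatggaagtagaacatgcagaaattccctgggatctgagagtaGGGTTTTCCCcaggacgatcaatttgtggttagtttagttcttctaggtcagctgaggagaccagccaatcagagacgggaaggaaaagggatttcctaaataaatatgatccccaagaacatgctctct
Cxcl10: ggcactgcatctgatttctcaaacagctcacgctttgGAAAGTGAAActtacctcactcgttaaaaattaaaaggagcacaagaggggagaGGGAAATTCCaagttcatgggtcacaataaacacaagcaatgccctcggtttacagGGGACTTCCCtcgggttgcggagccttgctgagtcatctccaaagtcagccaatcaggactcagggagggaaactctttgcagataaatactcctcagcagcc
Cxcl14: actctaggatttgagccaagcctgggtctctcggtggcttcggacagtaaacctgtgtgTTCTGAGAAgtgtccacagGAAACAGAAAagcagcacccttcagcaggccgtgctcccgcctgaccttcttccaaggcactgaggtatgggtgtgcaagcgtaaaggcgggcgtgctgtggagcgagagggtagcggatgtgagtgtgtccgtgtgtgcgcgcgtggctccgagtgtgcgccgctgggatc

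Cxcl10 held 1 response element core, GAAAGTGAAA, at 213 to 204 bases before its start, and kB-like matches at 159 to 150 and at 103 to 94 bases before it, the last of which matched on both strands. Cxcl2 had a kB-like match at 69 to 60 bases before its start, overlapped by another on the opposite strand. In Cxcl9 there was a kB-like match on the opposite strand, at 130 to 121 bases before the start. Cxcl14 had a response element core, GAAACAGAAA, at 172 to 163 bases before its start, and a gamma-activated site, TTCTGAGAA, at 191 to 183, which matched on both strands. Of 32851 promoter windows of 250 bases, 2.98% held the response element core, 17.6% the kB-like motif and 7.02% the gamma-activated site. A match describes these letters and no measured binding.

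The first question was what ATV:4D9 did to the Cxcr3 ligands. Cxcl10 was 11.7 times as high after ATV:4D9 as after ATV:ISO in WT;TfRmu/hu mice and 19.8 times as high in AppSAA;TfRmu/hu mice, and Cxcl11 moved with it. Its level in the 4 WT;TfRmu/hu mice that received ATV:ISO was 147, 74.7, 113 and 142 CPM (pools 1 to 4), against 1516, 1074, 1507 and 1501 CPM after ATV:4D9. In AppSAA;TfRmu/hu mice it was 144, 68.4, 164 and 158 CPM after ATV:ISO and 4024, 1867, 2328 and 2364 CPM after ATV:4D9. Every mouse that received ATV:4D9 was above every mouse that received ATV:ISO, and the lowest value after ATV:4D9 in each genotype came from pool 2. The log2 fold change was 3.55 ± 0.30 (SE, adjusted p = 3.2e-09) in WT;TfRmu/hu mice. It was 4.31 ± 0.31 (adjusted p = 5.1e-10) in AppSAA;TfRmu/hu mice.

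Cxcl11 was measured at 8.09, 2.56, 5.80 and 5.18 CPM in WT;TfRmu/hu mice that received ATV:ISO and at 61.2, 30.3, 62.3 and 63.7 CPM in those given ATV:4D9. The AppSAA;TfRmu/hu mice gave 5.38, 1.05, 5.74 and 6.34 CPM after ATV:ISO and 219.7, 125.6, 161.4 and 140.8 CPM after ATV:4D9. These groups did not overlap, and pool 2 was again the lowest in all 4 of them. The log2 fold change was 3.35 ± 0.45 in WT;TfRmu/hu mice (adjusted p = 1.9e-06) and 5.10 ± 0.46 in AppSAA;TfRmu/hu mice (adjusted p = 1.4e-08).

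Cxcl9, the third ligand of Cxcr3, was sparse. It had 6165 UMIs in all, in 999 cells, and the 1% of cells with the most Cxcl9 held 95.9% of them. The WT;TfRmu/hu mice gave 0.111, 0.135, 2.12 and 0.956 CPM after ATV:ISO and 2.59, 0.569, 1.89 and 3.02 CPM after ATV:4D9. In AppSAA;TfRmu/hu mice the level was 3.13, 1.12, 19.4 and 6.15 CPM after ATV:ISO and 7.90, 9.86, 11.2 and 9.98 CPM after ATV:4D9. The groups overlapped in both genotypes. The differences were 1.23 ± 0.88 (adjusted p = 0.23) and 0.35 ± 0.62 (adjusted p = 0.66) on the log2 scale and were not called.

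Cxcl16, the transmembrane ligand of Cxcr6, was present in more cells than any other member, 71.3% of all. After ATV:ISO it was at 84.5, 88.1, 80.0 and 89.3 CPM in WT;TfRmu/hu mice and at 144.7, 137.7, 129.9 and 133.1 CPM in AppSAA;TfRmu/hu mice. After ATV:4D9 it was at 379, 269, 317 and 355 CPM in WT;TfRmu/hu mice and at 685, 452, 563 and 501 CPM in AppSAA;TfRmu/hu mice. No groups overlapped, and the mice within a group lay closer together than for Cxcl10. The log2 fold change was 1.95 ± 0.12 (adjusted p = 2.1e-11) in WT;TfRmu/hu mice, a fold of 3.86. In AppSAA;TfRmu/hu mice it was 2.01 ± 0.12 (adjusted p = 2.0e-11), a fold of 4.04.

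A rise of Cxcl14 or Cxcl2 with ATV:4D9 was not called over all mice. Cxcl14 in AppSAA;TfRmu/hu mice was at 27.0, 28.95, 18.5 and 17.8 CPM after ATV:ISO and at 13.3, 13.3, 11.9 and 7.80 CPM after ATV:4D9. The lowest mouse that received ATV:ISO was above the highest given ATV:4D9. Cxcl14 fell by 0.99 ± 0.35 on the log2 scale (adjusted p = 0.020). This call was lost with each cell thinned to 5000 UMIs (log2 -0.44, adjusted p = 0.16), by DESeq2 (adjusted p = 0.050) and without either of 2 mice, AppSAA;TfRmu/hu ATV:ISO of pool 2 (-0.86, adjusted p = 0.061) or AppSAA;TfRmu/hu ATV:4D9 of pool 4 (-0.82, adjusted p = 0.070).

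In WT;TfRmu/hu mice Cxcl14 was at 1.88, 10.5, 1.55 and 2.07 CPM after ATV:ISO and at 3.72, 3.37, 2.73 and 3.18 CPM after ATV:4D9. The mouse of pool 2 given ATV:ISO was the highest of these 8, and the other 3 given ATV:ISO were below all 4 given ATV:4D9. The difference was -0.29 ± 0.41 on the log2 scale (adjusted p = 0.56), and without that mouse it was 0.82 ± 0.26 (adjusted p = 0.011). The same mouse had 2.52% of its cells in cluster 1, against 0.814% to 1.41% in the other 3 of its group. Cluster 1 held 80.3% of its 234 Cxcl14 UMIs, the highest such share in the group.

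Cxcl2 was at 4.65, 14.5, 7.04 and 8.23 CPM in WT;TfRmu/hu mice that received ATV:ISO and at 9.53, 8.42, 18.6 and 12.96 CPM in those given ATV:4D9. In the ATV:ISO mouse at 14.5 CPM (324 Cxcl2 UMIs), cluster 4 held 62.3% of these UMIs and 0.243% of the cells. The highest cell of this ATV:ISO group held 201 Cxcl2 UMIs, and a fit that left out this cell alone was not run. The AppSAA;TfRmu/hu mice gave 36.7, 22.3, 40.2 and 27.6 CPM after ATV:ISO and 23.8, 19.0, 26.4 and 22.6 CPM after ATV:4D9. The groups overlapped in both genotypes. Neither difference was called, at 0.51 ± 0.31 (adjusted p = 0.15) in WT;TfRmu/hu mice and -0.47 ± 0.28 (adjusted p = 0.17) in AppSAA;TfRmu/hu mice. The first was called without the pool 2 mouse that received ATV:ISO (0.87, adjusted p = 0.019) and with cells thinned to 5000 UMIs (0.78, adjusted p = 0.015). It was also called without cells with markers of other cell types (1.16, adjusted p = 0.0038) and in the version of that filter with Csf3r and Cd79b left aside (0.90, adjusted p = 0.011).

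Counted together, 3 of the 6 members were higher and 0 lower after ATV:4D9 in WT;TfRmu/hu mice, where 30.8% of all tested genes were higher and 32.5% lower. The counts in AppSAA;TfRmu/hu mice were 3 higher and 1 lower, against 27.9% and 27.1% of all tested genes. The CPM of the groups did not overlap for 3 members in WT;TfRmu/hu mice and 4 in AppSAA;TfRmu/hu mice, against 55.6% and 47.6% of all tested genes. In either direction 63.3% and 55.1% of all tested genes were called, so the number of members called was near that of genes at large.

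**Figure D1:**
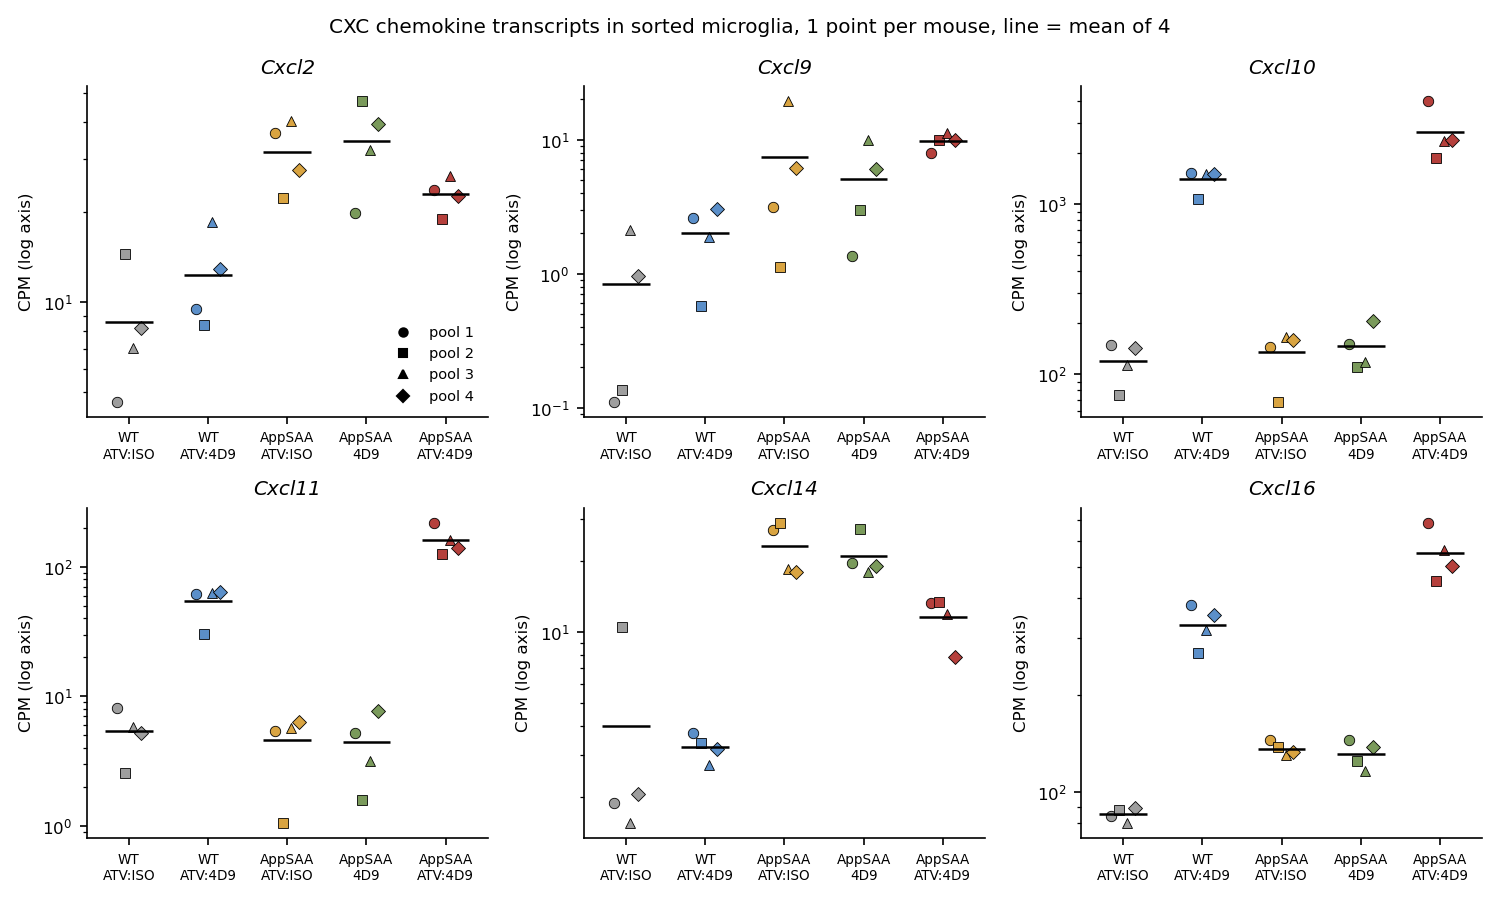
Level of each of the 6 CXC chemokines in every mouse, in CPM on a log axis, for the 5 groups of 4 mice. Points are mice, with a shape for each pool, and the line is the group mean. Cxcl10, Cxcl11 and Cxcl16 sit higher in both groups given ATV:4D9, while Cxcl14 and Cxcl2 separate by genotype after ATV:ISO.

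The second question was whether the same dose of the antibody without the ATV had the same effect in AppSAA;TfRmu/hu mice. Brain levels of the 2 antibodies were not matched. After 4D9, Cxcl10 was at 150.2, 109.8, 117.2 and 203 CPM, which overlapped the mice that received ATV:ISO. Its difference was 0.12 ± 0.27 on the log2 scale (adjusted p = 1.00). Cxcl11 was at 5.18, 1.60, 3.16 and 7.69 CPM and Cxcl16 at 144.9, 124.9, 116.0 and 138.0 CPM, also within or across the range of ATV:ISO. The differences from ATV:ISO were -0.10 ± 0.44 and -0.06 ± 0.11.

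Across the members 0 of 6 were called between 4D9 and ATV:ISO by edgeR, and 0 had an unadjusted p under 0.05 by edgeR, DESeq2 or limma-voom. Of all tested genes 0% were called in either direction, and the groups did not overlap for 0.69%, as for 0 of the members. An edgeR unadjusted p under 0.05 was found for 79 of the 14058 genes, far fewer than evenly spread p-values would give. This fit leaves out the pool, and its 0 calls do not show that 4D9 had no effect. With the pool as a block 0 of 6 members were called as well. Cxcl14 (19.5, 27.2, 17.9 and 18.9 CPM), Cxcl2 (19.9, 47.0, 32.2 and 39.5 CPM) and Cxcl9 (1.37, 2.96, 9.92 and 5.998 CPM) overlapped with the mice that received ATV:ISO as well.

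Set directly against 4D9, ATV:4D9 gave a Cxcl10 level 18.2 times as high, with a log2 fold change of 4.19 ± 0.31 (adjusted p = 7.4e-10). Cxcl11 was 36.8 times as high (5.20 ± 0.47, adjusted p = 1.4e-08) and Cxcl16 4.21 times as high (2.07 ± 0.12, adjusted p = 1.5e-11). These 3 members did not overlap between the groups. Cxcl14 fell by 0.85 ± 0.35 (adjusted p = 0.044), a call that was lost in 5 other settings. The log2 value was -0.32 with cells thinned to 5000 UMIs (adjusted p = 0.33) and -0.66 to -0.85 in the rest of these. The call was also lost without any 1 of the 8 mice compared (-0.68 to -0.93, adjusted p up to 0.13). Cxcl2 fell by 0.60 ± 0.28 (adjusted p = 0.080), or by 0.59 with the pool as a block (adjusted p = 0.047) and 0.91 without cluster 3 (adjusted p = 0.026). Cxcl9 differed by 0.90 ± 0.64 (adjusted p = 0.25), or by 1.19 with the pool as a block (adjusted p = 0.025) and 1.33 with cells thinned to 5000 UMIs (adjusted p = 0.037). In all, 3 members were higher and 1 lower, against 27.6% and 26.7% of the tested genes (54.3% in either direction). The groups did not overlap for 4 members, against 46.9% of all tested genes. The comparisons with ATV:ISO and with 4D9 share the mice that received ATV:4D9 and are not independent.

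**Figure D2:**
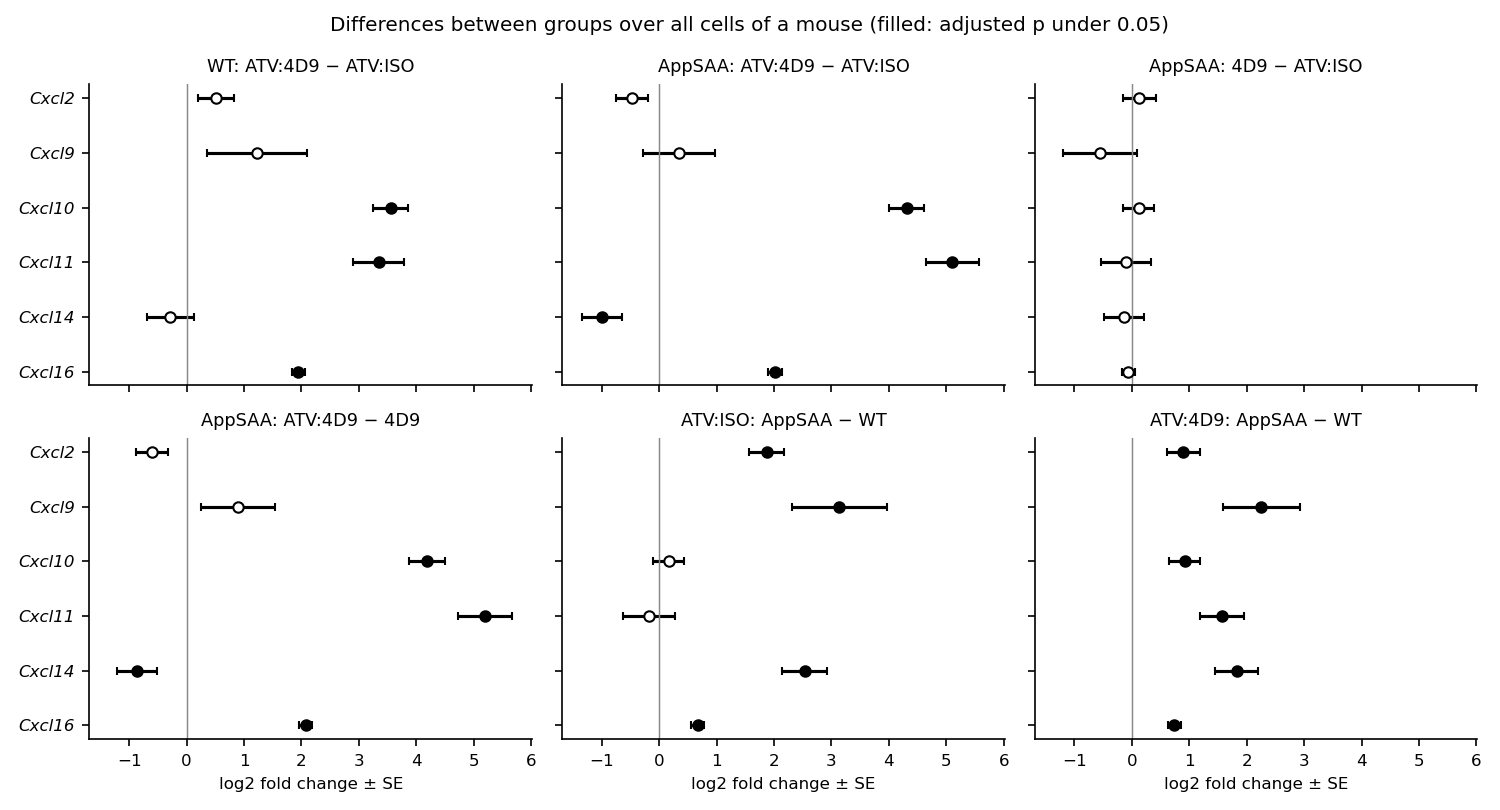
Log2 fold change of each member in the 6 comparisons of 2 groups, with bars of 1 SE from the edgeR fit over 20 mice and filled points for an adjusted p under 0.05. Cxcl10, Cxcl11 and Cxcl16 lie to the right of 0 in the 3 comparisons of ATV:4D9 with ATV:ISO or 4D9, and the bars of all 6 members cross 0 between 4D9 and ATV:ISO.

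The third question was the effect of the AppSAA genotype. With ATV:ISO in both genotypes the chemokines that ATV:4D9 raised most did not separate. Cxcl10 differed by 0.17 ± 0.27 on the log2 scale (adjusted p = 0.70) and Cxcl11 by -0.18 ± 0.46 (adjusted p = 0.81). The other 4 members were higher in AppSAA;TfRmu/hu mice, where 14.4% of all tested genes were higher, 13.7% lower and 28.2% either. For Cxcl14 the log2 fold change was 2.53 ± 0.40 (adjusted p = 5.7e-05), a fold of 5.79. For Cxcl2 it was 1.87 ± 0.31 (adjusted p = 1.0e-04), a fold of 3.66. The groups did not overlap for Cxcl14, Cxcl2 or Cxcl16, as was the case for 27.4% of all tested genes.

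Cxcl16 was 1.59 times as high in AppSAA;TfRmu/hu mice (0.67 ± 0.12, adjusted p = 1.5e-04). Cxcl9 was higher by 3.14 ± 0.83 (adjusted p = 0.0073) although the groups overlapped. That value leaned on the AppSAA;TfRmu/hu ATV:ISO mouse of pool 3, and without it the difference was 2.04 (adjusted p = 0.052). By limma-voom it was 3.43 with an adjusted p of 0.10, and without cells with markers of other cell types it was 2.91 with an adjusted p of 0.054.

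Markers of other cells moved with the genotype too, in both directions. After ATV:ISO the summed level of 4 endothelial markers was 18.3 to 24.5 CPM in WT;TfRmu/hu and 37.5 to 52.4 CPM in AppSAA;TfRmu/hu mice. That of 6 T and natural killer cell markers was 0.244 to 0.972 and 1.44 to 1.91 CPM. The sum of 4 B cell markers was lower, at 26.9 to 30.5 and 17.3 to 20.4 CPM. Neutrophil and oligodendrocyte sums were lower in AppSAA;TfRmu/hu mice in every pool, with overlapping ranges. Single genes weighed heavily, with 18597 UMIs of Flt1 against 172 of Cldn5 over all cells, and 714 of Klrb1c against 98 of Nkg7. Without 825 cells with at least 2 UMIs of a neutrophil or lymphocyte marker or with more UMIs of another cell type's markers than of microglial ones (Csf3r and Cd79b left aside), Cxcl14 differed by 2.49 (adjusted p = 7.1e-05), Cxcl2 by 2.25 (adjusted p = 6.6e-06) and Cxcl9 by 3.07 (adjusted p = 0.0098) on the log2 scale.

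With ATV:4D9 in both genotypes all 6 members were higher in AppSAA;TfRmu/hu mice, where 7.84% of the tested genes were higher, 3.98% lower and 11.8% either. Their CPM did not overlap between the genotypes, against 14.9% of all tested genes. Cxcl16 had a log2 fold change of 0.74 ± 0.11 (adjusted p = 1.3e-04) and Cxcl11 of 1.57 ± 0.39 (adjusted p = 0.0092). Cxcl14 was 3.55 times as high (1.83 ± 0.37, adjusted p = 0.0019). These 3 were called in all 20 fits that left out 1 mouse.

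The remaining 3 were less firm. Cxcl10 was 1.89 times as high (0.92 ± 0.27, adjusted p = 0.032), which was lost without the AppSAA;TfRmu/hu mouse of pool 1 (0.64, adjusted p = 0.13) or without any of the WT;TfRmu/hu ATV:4D9 mice of pools 2 to 4 (lowest 0.81, adjusted p = 0.11), and by limma-voom (adjusted p = 0.070). Cxcl9 (2.26 ± 0.67, adjusted p = 0.032) was called in 14 of the 20 fits, and not without the WT;TfRmu/hu mice of pools 1 to 3 or the AppSAA;TfRmu/hu mice of pools 2 to 4 given ATV:4D9 (adjusted p up to 0.11). Cxcl2 (0.89 ± 0.29, adjusted p = 0.048) was called in 6 of them, with an adjusted p up to 0.16 in the rest. Without the cells of cluster 5 all 3 calls were lost (Cxcl10 at 0.75, Cxcl9 at 1.77 and Cxcl2 at 0.91, with adjusted p of 0.14, 0.12 and 0.087), and DESeq2 did not call Cxcl9 or Cxcl2 (adjusted p of 0.056 and 0.065). Without cells with markers of other cell types Cxcl9 (2.34, adjusted p = 0.091) and Cxcl2 (0.72, adjusted p = 0.12) were not called. In the version of that filter with Csf3r and Cd79b left aside both were called, at 2.23 (adjusted p = 0.036) and 0.91 (adjusted p = 0.028). Cxcl2 was also not called without cells over 25000 UMIs (0.68, adjusted p = 0.093) or without cluster 3 (0.87, adjusted p = 0.096). With the pool as a block all 3 were called, at 0.89 (adjusted p = 3.8e-04), 2.36 (adjusted p = 7.4e-04) and 0.92 (adjusted p = 0.011).

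The interaction asks whether the response to ATV:4D9 differed by genotype. None of the members was called in it (0 of 6 by edgeR, with 2 at an unadjusted p under 0.05), against 3.79% of the tested genes higher, 5.35% lower and 9.14% either. For Cxcl11 the extra response in AppSAA;TfRmu/hu mice was 1.75 ± 0.60 on the log2 scale (adjusted p = 0.072), and with the pool as a block it was 1.80 ± 0.37 (adjusted p = 0.0015). For Cxcl10 it was 0.75 ± 0.38 (adjusted p = 0.27), and 0.73 ± 0.23 with the block (adjusted p = 0.022). Cxcl16, by contrast, had an interaction of 0.06 ± 0.16. Without the WT;TfRmu/hu ATV:ISO mouse of pool 2, interactions of -1.81 for Cxcl14 (adjusted p = 0.0014) and -1.34 for Cxcl2 (adjusted p = 0.045) were called. The Cxcl2 interaction was also called without the 825 cells with markers of other cells (-1.34, adjusted p = 0.036), and that of Cxcl11 without cluster 3 (1.88, adjusted p = 0.049).

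Because cells were deeper after ATV:4D9, each cell was thinned to 5000 UMIs and 4309 shallower cells were left out. In the thinned cells Cxcl10 was detected in 34.3% ± 10.6 of cells (SD, n = 4) in WT;TfRmu/hu mice that received ATV:ISO and in 56.3% ± 9.47 after ATV:4D9. In AppSAA;TfRmu/hu mice it was detected in 32.3% ± 10.2 of cells after ATV:ISO, 31.8% ± 10.3 after 4D9 and 63.2% ± 11.5 after ATV:4D9. Not thinned, the 5 values were 47.5%, 74.7%, 51.8%, 51.9% and 77.9%.

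Cxcl16 went from 32.6% ± 1.65 to 68.0% ± 2.80 of thinned cells in WT;TfRmu/hu mice and from 40.5% ± 1.26 to 76.9% ± 5.34 in AppSAA;TfRmu/hu mice. Cxcl11 was seen in fewer cells, 1.63% ± 0.91 and 6.06% ± 2.05 in WT;TfRmu/hu mice and 1.38% ± 0.67 and 12.8% ± 3.07 in AppSAA;TfRmu/hu mice. Cxcl14 was detected in 0.819% ± 0.46 of cells of WT;TfRmu/hu and 5.46% ± 0.90 of cells of AppSAA;TfRmu/hu mice that received ATV:ISO. Cxcl9 in AppSAA;TfRmu/hu mice was in 0.320%, 0.1999%, 0.891% and 0.591% of thinned cells after ATV:ISO, in 0.374% to 0.804% after 4D9 and in 1.51%, 1.09%, 1.33% and 1.18% after ATV:4D9. Unlike its CPM, its percent after ATV:4D9 lay above all the AppSAA;TfRmu/hu mice that received ATV:ISO or 4D9. Like its CPM, it also lay above the WT;TfRmu/hu mice that received ATV:4D9 (0.266% to 0.625%). A two-sided exact permutation test of 4 mice against 4 cannot go below p = 0.029, a value that each of these 3 Cxcl9 differences had and that, adjusted over the 36 tests, was 0.064. Within pools the Cxcl10 percent was higher after ATV:4D9 than after ATV:ISO by 19.2 to 26.1 percentage points in WT;TfRmu/hu and by 26.6 to 38.1 in AppSAA;TfRmu/hu mice, in 4 of 4 pools each. No difference in percent was called (0 of 36), although 16 of the 36 had the smallest p of the unpaired test. An exact paired test over 4 pools cannot go below p = 0.125.

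Cells with at least 2 Cxcl10 UMIs made up 8.96% ± 4.50 of thinned cells after ATV:ISO and 39.6% ± 7.78 after ATV:4D9 in WT;TfRmu/hu mice. In AppSAA;TfRmu/hu mice the shares were 8.69% ± 4.02 after ATV:ISO, 8.45% ± 3.86 after 4D9 and 48.4% ± 11.2 after ATV:4D9. The next values are from cells that were not thinned, which were deeper after ATV:4D9. Among cells with any Cxcl10, the median was 1 UMI after ATV:ISO in both genotypes and after 4D9, and it was 5 and 13 UMIs after ATV:4D9 in WT;TfRmu/hu and AppSAA;TfRmu/hu mice. Cells with at least 10 Cxcl10 UMIs made up 0.873% and 1.69% of cells after ATV:ISO and 1.86% after 4D9, against 32.3% and 41.3% after ATV:4D9 (WT;TfRmu/hu and AppSAA;TfRmu/hu). The highest cell held 1426 Cxcl10 UMIs and came from an AppSAA;TfRmu/hu mouse that received ATV:4D9.

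The members differed in how evenly cells shared them. The 1% of cells with the most UMIs of a member held 10.1% of Cxcl16, 24.7% of Cxcl10, 42.0% of Cxcl14, 58.6% of Cxcl11, 74.4% of Cxcl2 and 95.9% of Cxcl9. Cxcl2 and Cxcl9 thus came from few cells, and 1 such cell could hold up to 248 or 510 UMIs. In the mice that received ATV:ISO or 4D9, 68.1% to 92.9% of the cells with any Cxcl2 held 1 UMI.

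The deposited clustering at resolution 0.2 gives 6 clusters, numbered 0 to 5. They were made from expression, so levels in them are a description without a test. By lists of marker genes cluster 5 was the highest in interferon-stimulated genes (median log2 ratio to the other cells 3.90 over 10 genes). Cluster 1 was the highest in genes of the plaque response such as Cst7 and Clec7a (3.07 over 7), cluster 4 in cell cycle genes (3.50 over 6) and cluster 3 in immediate early genes (1.57 over 11). Cluster 0 was the highest in microglial markers (0.84 over 6), and cluster 2 led none of these lists.

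A level in a cluster was taken where a mouse had at least 20 cells there, which left 17 mice in cluster 5 (1 of them a WT;TfRmu/hu mouse that received ATV:ISO), 16 in clusters 1 and 4 and all 20 in the others. Cxcl10 and Cxcl11 were highest in cluster 5 in 16 of the 17 mice each, and Cxcl9 in 15. Cxcl10 in cluster 5 reached 6909.5 to 8003 CPM in WT;TfRmu/hu and 4117 to 6958 CPM in AppSAA;TfRmu/hu mice that received ATV:4D9, against 423 to 1029 CPM in AppSAA;TfRmu/hu mice that received ATV:ISO. Cluster 4 followed with 1216 to 1697 and 2047 to 3640 CPM in the 2 groups given ATV:4D9. In cluster 0 it stayed between 39.2 and 172 CPM in all 20 mice.

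Cxcl16 was highest in cluster 5 in 12 mice and in cluster 2 in 8. After ATV:4D9 in AppSAA;TfRmu/hu mice it averaged 681 CPM in cluster 5, 568 CPM in cluster 2 and 469 CPM in cluster 4, against 134 CPM in cluster 0. The order was another one after ATV:ISO in these mice, with 217 CPM in cluster 5, 286 CPM in cluster 2, 231 CPM in cluster 4 and 87.5 CPM in cluster 0. Cxcl14 was highest in cluster 1 in 14 of the 16 mice with a level there, where it averaged 49.6 ± 45.3 CPM (SD, n = 16), and in cluster 0 it averaged 1.28 ± 1.08 CPM (n = 20). The median in cluster 1 was 37.1 CPM and the highest mouse was at 217 CPM. Of 125 cells with at least 10 Cxcl14 UMIs, 89.6% were in cluster 1. Cxcl2 had no single leading cluster, with cluster 1 highest in 7 mice, cluster 2 in 6 and cluster 4 in 4.

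**Figure D3:**
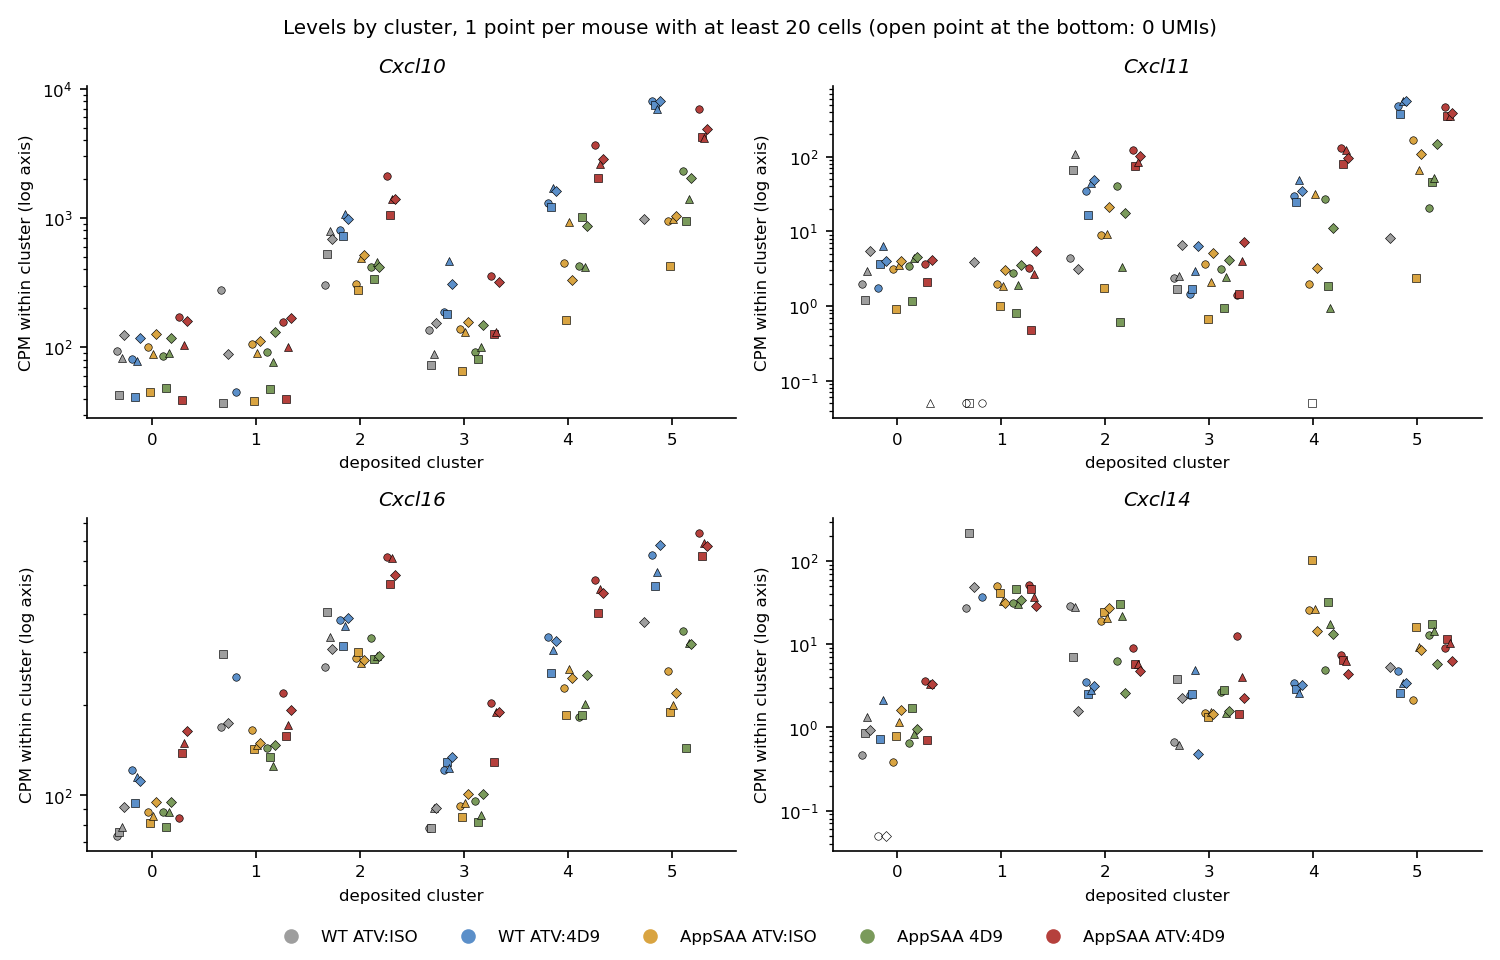
Level of Cxcl10, Cxcl11, Cxcl16 and Cxcl14 in the 6 deposited clusters, in CPM on a log axis, with 1 point per mouse with at least 20 cells in the cluster, colored by group, and open points for 0 UMIs. Cxcl10 and Cxcl11 are highest in cluster 5 in 16 of the 17 mice shown there, Cxcl14 in cluster 1 in 14 of 16, and Cxcl16 in clusters 5 or 2.

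The shares of cells and of UMIs held by each cluster differed between the mice that received ATV:ISO and those given ATV:4D9. Clusters 2, 4 and 5 together held 2.43% of the cells of WT;TfRmu/hu and 5.77% of those of AppSAA;TfRmu/hu mice that received ATV:ISO, and 29.8% and 32.4% of the Cxcl10 UMIs. After ATV:4D9 they held 91.9% and 80.2% of the cells and 99.4% and 99.2% of the Cxcl10 UMIs. Cluster 5 alone held 45.3% of the Cxcl10 UMIs in AppSAA;TfRmu/hu mice that received ATV:4D9 from 22.4% of the cells. In WT;TfRmu/hu mice it held 24.96% from 4.21% of the cells.

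Cluster 1 held 90.1% of the Cxcl14 UMIs and 80.2% of the Cxcl2 UMIs in AppSAA;TfRmu/hu mice that received ATV:ISO. After 4D9 these shares were 91.7% and 82.5%, and after ATV:4D9 they were 42.1% and 21.1%. The share of cells in cluster 1 was 38.3%, 39.4% and 13.5% in these 3 groups.

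**Figure D4:**
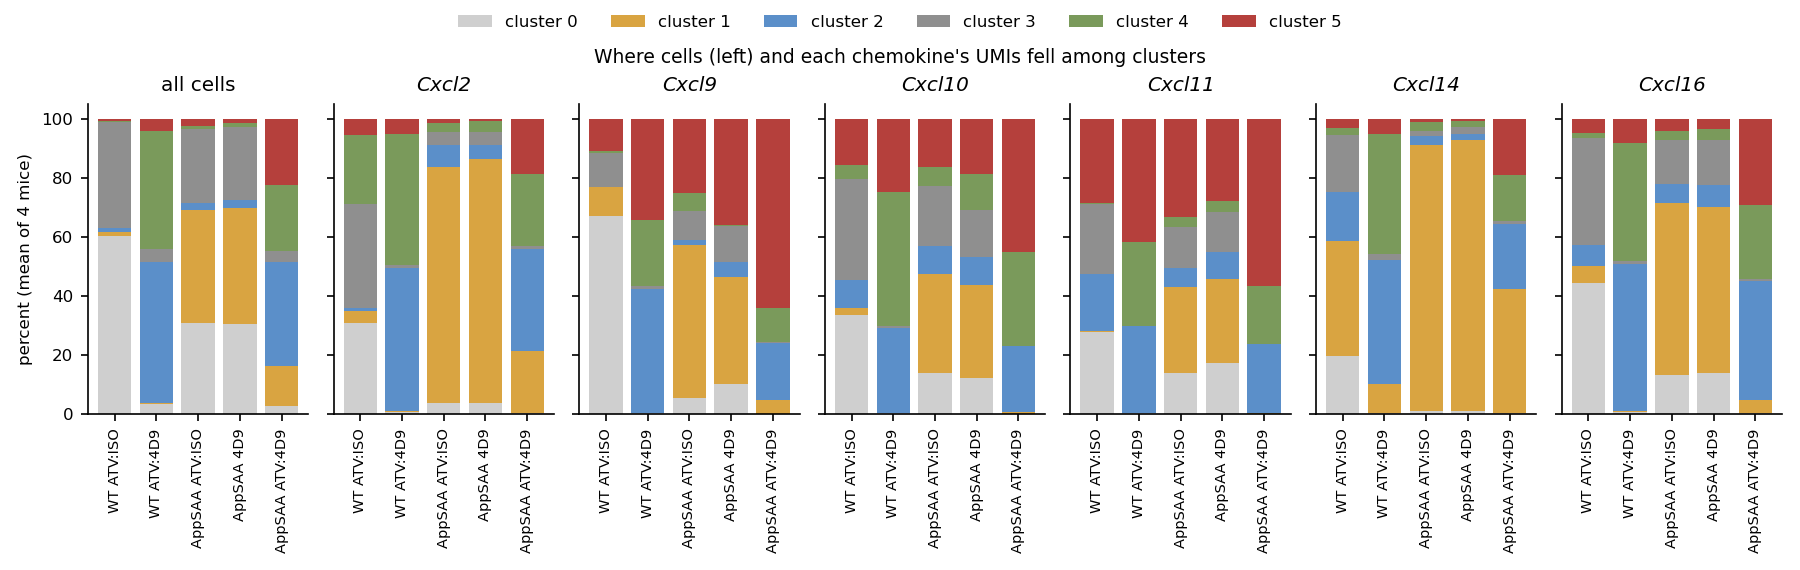
Share of the cells and of the UMIs of each member held by each of the 6 clusters, as the mean over 4 mice in each of 5 groups, in percent. After ATV:4D9 clusters 2, 4 and 5 hold 99.4% and 99.2% of Cxcl10 in the 2 genotypes, while cluster 1 holds 90.1% of Cxcl14 in AppSAA;TfRmu/hu mice that received ATV:ISO.

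Tests within clusters ask whether the level also differed between groups once a cluster was fixed. UMIs were summed for each mouse within a cluster if it had 20 cells or more there, and each cluster had its own fit. In AppSAA;TfRmu/hu mice 11 of 35 member and cluster pairs were higher after ATV:4D9 than after ATV:ISO and 6 lower, against 6.43% and 5.25% of the pairs over all genes. In cluster 5 Cxcl10 was at 4117 to 6958 CPM after ATV:4D9, above all 4 mice that received ATV:ISO, with a log2 fold change of 2.71 ± 0.25 (adjusted p = 8.7e-08). It was higher in cluster 2 (1.97 ± 0.23) and cluster 4 (2.57 ± 0.35) as well. In cluster 3 it differed by 1.05 ± 0.33 (adjusted p = 0.070), and by 1.03 with the pool as a block (adjusted p = 3.8e-04). In clusters 0 and 1 the differences were 0.32 ± 0.38 and 0.49 ± 0.41 and were not called.

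Cxcl11 was called in the same 3 clusters, at 3.18 ± 0.55 in cluster 2, 2.98 ± 0.45 in cluster 4 (5.65 without pool 3) and 2.45 ± 0.43 in cluster 5. Cxcl16 was higher in 5 of the 6 clusters, from 0.74 ± 0.12 in cluster 0 to 1.78 ± 0.18 in cluster 5, and in cluster 1 by 0.34 ± 0.16 (adjusted p = 0.45). The cluster 0 call was lost without pool 2 (adjusted p = 0.088) or pool 4 (adjusted p = 0.13). The direction in clusters 2 and 4 was the opposite for Cxcl14, which fell by 1.77 ± 0.37 and 2.66 ± 0.40 on the log2 scale. In cluster 1, where most of its UMIs were, it differed by 0.09 ± 0.31 (adjusted p = 0.99).

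Cxcl2 and Cxcl9 were each called lower after ATV:4D9 in 2 clusters, in part from few cells. The cluster 4 sums of AppSAA;TfRmu/hu mice that received ATV:ISO came from 27 to 74 cells. In them Cxcl2 was at 18.0, 2.96, 195.2 and 7.33 CPM, against 10.9 to 24.3 CPM after ATV:4D9. Cxcl2 fell by 1.91 ± 0.57 (adjusted p = 0.017) with the pool 3 mouse and was 1.22 higher without pool 3 (adjusted p = 0.17). In cluster 2 it fell by 1.92 ± 0.35 (adjusted p = 4.4e-04). In clusters 3 and 5 it differed the other way, by 0.63 ± 0.41 (adjusted p = 0.49) and 0.71 ± 0.56 (adjusted p = 0.36), and without pool 2 the cluster 5 value was 1.70 and called (adjusted p = 0.0040). Cxcl9 in cluster 5 fell by 1.60 ± 0.57 (adjusted p = 0.035), which was lost without pool 1, 3 or 4, and in cluster 4 by 2.73 ± 0.76 (adjusted p = 0.011). In cluster 4 its level after ATV:ISO was 0, 0, 7.17 and 80.6 CPM, against 1.04 to 9.95 CPM after ATV:4D9. The groups overlapped, and without pool 4 Cxcl9 was not among the genes tested there.

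In WT;TfRmu/hu mice clusters 0, 2 and 3 had enough cells in both groups. Of 17 pairs 3 were higher after ATV:4D9 and 0 lower, against 2.76% and 1.66% over all genes. They were Cxcl10 in cluster 3 (1.39 ± 0.32, adjusted p = 0.0093) and Cxcl16 in clusters 0 and 3 (0.51 ± 0.12 and 0.69 ± 0.12). Without pool 3 the first was 0.99 (adjusted p = 0.14), and the cluster 0 call was lost without any 1 of the pools. Cxcl10 in cluster 2 differed by 0.67 ± 0.23 (adjusted p = 0.092), and by 0.66 with the pool as a block (adjusted p = 0.026). Cxcl14 in cluster 2 differed by -2.25 ± 0.70 (adjusted p = 0.055), and by -2.22 with the block (adjusted p = 0.043).

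Between 4D9 and ATV:ISO 0 of 35 pairs were called by edgeR, with 5 at an unadjusted p under 0.05, and 0% of the pairs over all genes. The pair nearest to a call was Cxcl10 in cluster 5. It was at 2309, 952, 1408 and 2046 CPM after 4D9 and at 945, 423, 973 and 1029 CPM after ATV:ISO. Of the mice that received 4D9, 3 were above all 4 given ATV:ISO. The log2 fold change was 1.03 ± 0.24 (unadjusted p = 2.6e-04 and adjusted p = 1 by edgeR). With the pool as a block it was 1.00 (adjusted p = 0.0083), the 1 pair called in that fit. These sums came from 37 to 62 and 46 to 233 cells.

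Against 4D9, ATV:4D9 gave 12 higher and 4 lower of 35 pairs, where 5.27% and 3.93% over all genes were called. Cxcl10 was higher in clusters 2, 3, 4 and 5, by 1.26 ± 0.33 to 2.03 ± 0.34, Cxcl11 in clusters 2, 4 and 5 by 2.44 ± 0.45 to 3.89 ± 0.54, and Cxcl16 in every cluster but cluster 1. The lower pairs were Cxcl2 and Cxcl14 in cluster 2, Cxcl14 in cluster 4 and Cxcl9 in cluster 5. Each of these 4 was lost without a single pool, namely Cxcl2 without pool 2 (-0.95, adjusted p = 0.089), Cxcl14 without pool 2 or 3 in both clusters (in cluster 2 as low as -0.52, adjusted p = 0.61) and Cxcl9 without pool 3 (-1.24, adjusted p = 0.25). Of the higher pairs, Cxcl10 in cluster 3 was lost without pool 1, 3 or 4 and Cxcl16 in cluster 0 without pool 2, 3 or 4. With the pool as a block, Cxcl10 in cluster 0 (0.38, adjusted p = 0.030) and Cxcl16 in cluster 1 (0.47, adjusted p = 0.014) were called too.

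Between the genotypes within clusters, 1 of 23 pairs was higher in AppSAA;TfRmu/hu mice after ATV:ISO, namely Cxcl2 in cluster 2 (3.30 ± 0.73, adjusted p = 0.047), and 0 were lower, against 0.299% and 0.208% over all genes. That call was lost without pool 1, 3 or 4. With the pool as a block 3 pairs were higher and 1 lower, the last being Cxcl14 in cluster 1 (-1.50, adjusted p = 0.023). The shares just given are from the fit without the block and do not serve for these counts. After ATV:4D9 6 of 29 pairs were higher and 0 lower, against 1.63% and 0.632%. They were Cxcl10, Cxcl11 and Cxcl16 in cluster 2, Cxcl11 and Cxcl16 in cluster 4 and Cxcl14 in cluster 5. The 3 calls in cluster 2 were 0.83 ± 0.22 for Cxcl10, 1.49 ± 0.37 for Cxcl11 and 0.73 ± 0.12 for Cxcl16, and the first was lost without any 1 of the pools, the second without pool 1, 2 or 3. Cxcl14 in cluster 5 (1.38 ± 0.29, adjusted p = 0.0041) was lost without pool 3 (adjusted p = 0.055). With the pool as a block 13 pairs were higher and 1 lower, and the shares over all genes given above are again from the fit without it. The lower pair was Cxcl10 in cluster 5, which fell by 0.54 in AppSAA;TfRmu/hu mice (adjusted p = 0.012, against 0.24 without the block). Cluster 5 held 22.4% of the cells in these mice and 4.21% in WT;TfRmu/hu mice.

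Cxcl10 also varied by pool. In thinned cells the percent with Cxcl10 was the lowest in pool 2 in all 5 groups, while the highest was in pool 4 in 4 groups and in pool 1 in AppSAA;TfRmu/hu mice that received ATV:4D9. In mice that received ATV:ISO or 4D9 it was 18.1% to 20.2% in pool 2, 31.7% to 37.3% in pools 1 and 3 and 42.2% to 45.8% in pool 4. In cluster 0 the Cxcl10 level was 80.8 to 172 CPM in pool 1, 39.2 to 48.4 CPM in pool 2, 78.8 to 104.8 CPM in pool 3 and 117.6 to 158.4 CPM in pool 4. The groups overlapped in cluster 0, while the pools, each with 1 mouse of every group, separated pool 2 from the other 3.

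Over all cells of a pool the Cxcl10 level was 1685, 819, 821 and 1188 CPM in pools 1 to 4, and in the cluster 0 cells it was 94.2, 44.8, 87.4 and 125.2 CPM. Pool 1 was the highest over all cells and pool 4 in cluster 0. The level over all cells of a pool also followed the mix of groups in it. Pool 3 held 6126 cells of the AppSAA;TfRmu/hu mouse that received ATV:ISO and 2413 of the one given ATV:4D9. Pool 1 held 3466 and 4536. By mouse, Cxcl10 was higher in pool 3 than in pool 2 in every group. The order of the pools over all cells was not adjusted for this mix. Cxcl16 in cluster 0 cells was at 84.6, 81.7, 85.2 and 96.2 CPM in pools 1 to 4. In droplet data RNA free in the cell suspension adds UMIs to all cells, and no cell type that should lack these chemokines was among the clusters. Cluster 0 had Cxcl10 in 34.4% of its thinned cells (median 7178 UMIs per cell) and cluster 5 in 72.3% (14334 UMIs). The part of free RNA in the level of cluster 0 was not tested.

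**Figure D5:**
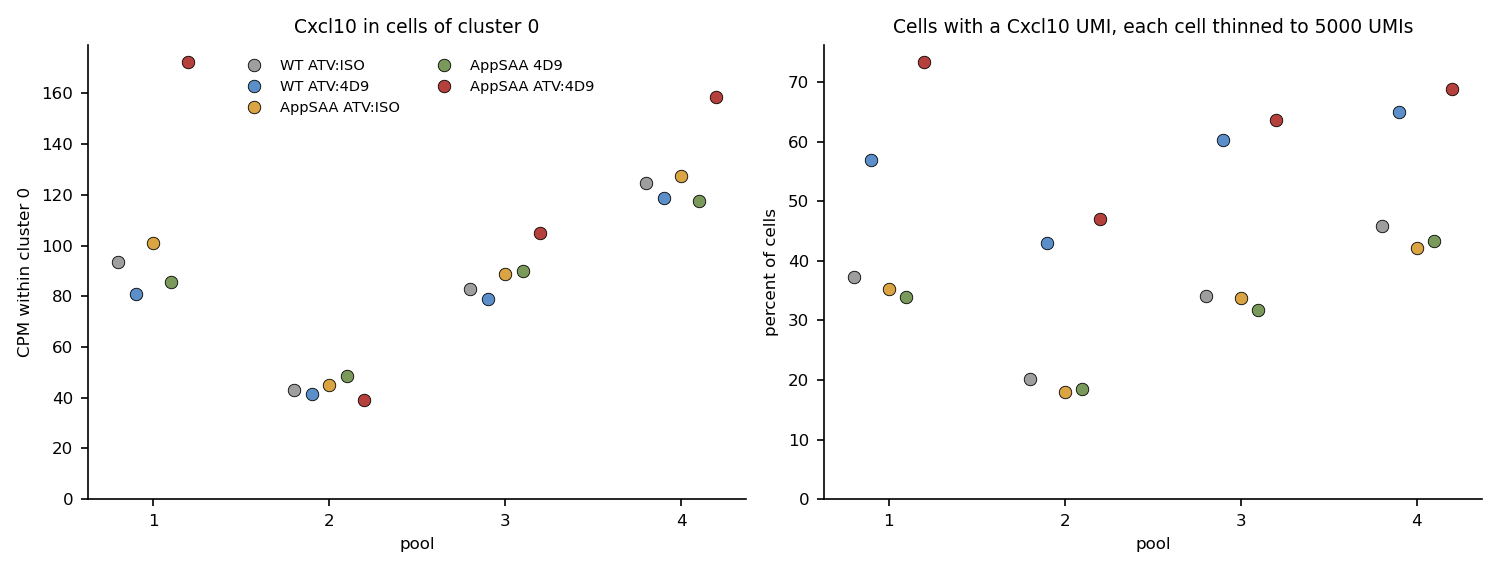
Cxcl10 by pool with 1 point per mouse, colored by group, as CPM within cluster 0 (left) and as percent of cells with a Cxcl10 UMI after thinning to 5000 UMIs (right). Within cluster 0 pool 2 lies between 39.2 and 48.4 CPM in all 5 groups, and the other pools lie at 78.8 CPM or above.

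The Cxcr3 ligands were more frequent in cells that held another of them. Over all 70449 thinned cells Cxcl11 was in 9.51% of those with Cxcl10 and in 1.39% of those without it, and Cxcl10 in 59.4% of those with Cxcl9 and in 45.1% of those without. Among thinned cells of cluster 5, Cxcl11 was present in 33.2% of those with Cxcl10 and in 2.53% of those without it, over 4845 cells. Cxcl10 was present in 86.1% of the cluster 5 cells with Cxcl9 and in 71.8% of those without. Cxcl14 was less frequent with Cxcl10 than without it, at 2.74% and 5.29% in the same cluster. Cells of a mouse and of a group are pooled in these shares.

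Over the 20 mice Cxcl10 and Cxcl11 had a Pearson r of 0.98 for log2 CPM. In deviations from the group means it was 0.91. Cxcl10 and Cxcl16 had r of 0.96 and 0.50, and Cxcl2 and Cxcl14 of 0.88 and 0.43. The first value of each pair includes the differences between groups. The mice share pools, so these are descriptions without a p-value.

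Of 9477 genes with a mean of at least 5 CPM, those most alike Cxcl10 over 20 mice were Ehd1 (r = 0.99), an endocytic recycling protein, Ccl12 (0.99), a CC chemokine, and Shmt2 (0.98), a mitochondrial enzyme of serine metabolism. In deviations from the group means they were Tnf (0.90), Ccl4 (0.87) and Mcm2 (0.87). For Cxcl11 the first 3 were Ccl2, Ccl12 and Cd40 (all 0.97), and for Cxcl16 Nab1, Slc11a2 and Tlr2 (all 0.99). Cxcl14 was most alike Bnip3 (0.96), Vim (0.95) and Socs2 (0.95), and Cxcl2 most alike Vim (0.93), Cspg4 (0.92) and Rab7b (0.92). Cxcl9 had Ptgs2 (0.89), H2-Q7 (0.87) and Gnptab (0.87).

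Among the other CXC ligands, 6 of 9 listed were in the table and 3 were tested (Cxcl1, Cxcl13 and Pf4). Cxcl13, a B cell attractant that binds Cxcr5, was the 1 of them that moved. It was at 4.03 to 11.02 CPM in WT;TfRmu/hu mice that received ATV:ISO, 5.13 to 12.5 CPM in those given ATV:4D9, 5.56 to 15.8 CPM in AppSAA;TfRmu/hu mice that received ATV:ISO, 3.82 to 8.63 CPM after 4D9 and 54.1 to 134.7 CPM after ATV:4D9. The last group lay above all others. The log2 fold change was 3.04 ± 0.37 in AppSAA;TfRmu/hu mice (adjusted p = 9.8e-07) and 0.41 in WT;TfRmu/hu mice (adjusted p = 0.38), and the interaction was 2.63 ± 0.53 (adjusted p = 0.0030). The medians over the list were -0.20 and 0.09 for ATV:4D9 against ATV:ISO in the 2 genotypes, beside -0.05 and -0.03 over all tested genes.

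Of 8 receptors 5 were tested (Cxcr2, Cxcr3, Cxcr4, Cxcr6 and Ackr3), and in AppSAA;TfRmu/hu mice 1 rose and 3 fell after ATV:4D9 (median -0.97), with 0 and 1 of 5 in WT;TfRmu/hu mice (median -0.28). Over all tested genes 27.9% rose and 27.1% fell in the former and 30.8% and 32.5% in the latter, and the counts of this and the next lists are to be read against these shares. Cxcr4, the receptor of Cxcl12, fell by 1.201 ± 0.294 in AppSAA;TfRmu/hu mice (adjusted p = 0.0018), from 7.95 to 15.1 CPM after ATV:ISO to 2.40 to 7.37 CPM. After ATV:ISO it was 3.21 ± 0.37 higher in AppSAA;TfRmu/hu than in WT;TfRmu/hu mice on the log2 scale (adjusted p = 1.4e-06). The other receptors that moved were under a mean of 1 CPM and are named because the counts are small. Cxcr3 fell by 1.88 ± 0.24 in WT;TfRmu/hu mice, from a mean of 1.26 to 0.33 CPM, and by 1.01 ± 0.22 in AppSAA;TfRmu/hu mice, where Ackr3 fell by 0.97 ± 0.31 and Cxcr6, the receptor of Cxcl16, rose by 1.62 ± 0.55 (from 31 to 116 UMIs in all). Of the enzymes that cut chemokines 3 of 4 were tested, and in AppSAA;TfRmu/hu mice Adam17 rose by 0.31 ± 0.08 (adjusted p = 0.0043) and Adam10 by 0.17 ± 0.06 (adjusted p = 0.030) after ATV:4D9, with 0 of 3 called in WT;TfRmu/hu mice.

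The interferon list held genes from the ligand to the transcription factors, with 15 of 16 tested. After ATV:4D9 4 rose and 7 fell in WT;TfRmu/hu mice (median -0.27), and 6 rose and 5 fell in AppSAA;TfRmu/hu mice (median -0.06). Called in either direction were 11 of 15 in each genotype, beside 63.3% and 55.1% of all tested genes. Ifnb1, which encodes interferon beta, rose from a mean of 0.21 to 2.502 CPM in WT;TfRmu/hu mice (3.50 ± 0.43, adjusted p = 5.8e-07) and from 0.30 to 6.70 CPM in AppSAA;TfRmu/hu mice (4.33 ± 0.34, adjusted p = 1.8e-09). Irf7, a transcription factor of the interferon response, rose by 2.08 ± 0.27 and 3.16 ± 0.27. Ifngr1, a chain of the interferon gamma receptor, fell by 1.01 ± 0.12 in WT;TfRmu/hu mice. Ifng, the ligand of that receptor, was the untested gene, with 7 UMIs in AppSAA;TfRmu/hu mice that received ATV:ISO, 3 in those given ATV:4D9 and 0 in the other groups. Between 4D9 and ATV:ISO 0 of 15 were called, and after ATV:4D9 the genotype comparison of AppSAA;TfRmu/hu with WT;TfRmu/hu mice gave 8 higher and 0 lower (median 0.31), beside 7.84% and 3.98% of all tested genes. After ATV:ISO 3 were higher and 3 lower (median 0.03), beside 14.4% and 13.7%.

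All 17 genes of the NF-kB list were tested. After ATV:4D9 7 rose and 6 fell in WT;TfRmu/hu mice (median 0.36) and 9 rose and 2 fell in AppSAA;TfRmu/hu mice (median 0.33), or 13 and 11 of 17 called beside 63.3% and 55.1% of all tested genes, and 0 were called between 4D9 and ATV:ISO. Tnf, which encodes tumor necrosis factor, rose by 2.74 ± 0.25 (adjusted p = 8.9e-09) and 2.18 ± 0.24 (adjusted p = 2.7e-07). Tlr2, a receptor for bacterial lipoproteins, rose by 1.47 ± 0.13 and 1.38 ± 0.13, and Il1a by 1.10 ± 0.15 and 0.95 ± 0.15. After ATV:ISO Il1b was 1.23 ± 0.17 higher and Tlr4 0.57 ± 0.09 lower in AppSAA;TfRmu/hu than in WT;TfRmu/hu mice, with 3 of 17 higher and 5 lower, beside 14.4% and 13.7% of all tested genes. The list of 10 interferon-stimulated genes that served to describe the clusters rose in full after ATV:4D9 in both genotypes (medians 2.38 and 2.95). By genotype 9 of these 10 were higher in AppSAA;TfRmu/hu mice after ATV:ISO (median 1.09) and 10 of 10 after ATV:4D9 (median 1.60), beside 14.4% and 7.84% of all tested genes. The list of 11 immediate early genes had 1 gene that rose and 3 that fell in WT;TfRmu/hu mice, and 1 and 2 in AppSAA;TfRmu/hu mice. The lists were chosen with results of these data known, and their counts describe the surroundings of the members.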

How the data were processed

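The authors aligned the reads to mm10 with Cell Ranger 6.1.1 (per the submitters' processing notes) and deposited raw UMI counts per gene and cell, with an annotation that gives each cell its mouse, group, pool and cluster. Those counts were summed per mouse here, over all cells or over the cells of 1 deposited cluster with at least 20 cells. How the authors treated doublets is not given in the sources used here, and no doublet caller was run. Cells over 25000 UMIs (7141) were left out as an alternative.

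Sums were filtered with filterByExpr, scaled by TMM and tested by the edgeR quasi-likelihood test over all 20 mice in R 4.3.3 (edgeR 4.0.16, limma 3.58.1, DESeq2 1.42.0), with Benjamini-Hochberg adjustment over all genes tested and calls under 0.05. The 20 mice are the replicates. The script of the fit over all cells was tested on simulated data. Mice gave 17150296 to 102446549 UMIs each, and shares of cells cover counting error only within a mouse. Percentages of cells were taken after thinning to 5000 UMIs, which left out 4309 cells, and compared by two-sided exact permutation tests, with an exact paired test over pools added after seeing the data.

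Mice of the same pool deviated together from their group means (correlations over genes from 0.143 to 0.607 in 40 pairs, median 0.394, against a median of -0.193 in 120 pairs of different pools). The labels give the pool, and the fit with the pool as a block was an alternative. A filter on markers of other cells took 40073 cells (53.6%), since Csf3r and Cd79b were common in microglia, and a version without these genes (825 cells) was added after seeing the data.

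The members and lists were chosen with earlier results of these data known. Named were the 6 members, up to 4 called genes of a list per comparison (largest change, mean of at least 1 CPM) and the 3 genes most correlated with each member (mean of at least 5 CPM). Some genes that this rule or the marker lists name are not reported here.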

Additional observations from a re-analysis of the deposited data

Results flagged for a closer look

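Of 60 sets of 4 mice (6 members, 5 groups, as CPM and as percent of cells), 3 had 1 mouse far from the other 3, and chance flags about 1 in 20 groups, or 3 here. The 3 sets came from 2 mice, both of pool 2. Cxcl10 was at 1074 CPM in the WT;TfRmu/hu mouse given ATV:4D9, where the others were at 1501 to 1516 CPM. Cxcl11 in the same mouse was at 30.3 CPM, with the others at 61.2 to 63.7 CPM. Cxcl14 was at 10.5 CPM in the WT;TfRmu/hu mouse given ATV:ISO, with the others at 1.55 to 2.07 CPM.

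The log2 change with ATV:4D9 was more positive in AppSAA;TfRmu/hu than in WT;TfRmu/hu mice by the edgeR interaction test for 8 named genes of the lists. By list, 1 of 3 tested genes of the other CXC ligands, 5 of 15 of the interferon list and 4 of 17 of the NF-kB list were higher. Of the 10 interferon-stimulated genes 1 was higher, with a median of 0.64 beside 0.04 over all tested genes. The receptor, enzyme and immediate early lists had 0. Of all tested genes 3.79% were higher, and the lists were chosen with results of these data known. The log2 difference between the genotypes was 2.63 for Cxcl13 (adjusted p = 0.0030). In the interferon list it was 1.01 for Stat2, 0.69 for Irf1 and 0.50 for Tyk2 (adjusted p from 1.4e-04 to 0.0075). In the NF-kB list it was 0.83 for Nfkbie, 0.80 for Myd88, 0.44 for Tlr4 and 0.35 for Nfkb1 (adjusted p from 1.8e-04 to 0.025). The change itself, with WT;TfRmu/hu mice first and AppSAA;TfRmu/hu mice second, was -0.61 and 0.19 for Myd88, -0.50 and 0.33 for Nfkbie, -0.14 and 0.54 for Irf1 and -0.30 and 0.05 for Nfkb1. It was -0.52 and -0.02 for Tyk2 and -0.47 and -0.03 for Tlr4, while Stat2 (0.34 and 1.35) and Cxcl13 (0.41 and 3.04) had positive values in both. Among the members the difference was called with the pool as a block, at 0.73 for Cxcl10 (adjusted p = 0.022) and 1.80 for Cxcl11 (adjusted p = 0.0015).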

How the results depend on the processing

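The ATV:4D9 differences of Cxcl10, Cxcl11 and Cxcl16 kept their direction and call over all cells in every alternative run, with leave-one-out log2 values of 3.39 to 3.67 and 4.03 to 4.44 (Cxcl10), 3.12 to 3.58 and 4.79 to 5.29 (Cxcl11) and 1.88 to 2.04 and 1.89 to 2.10 (Cxcl16) in WT;TfRmu/hu and AppSAA;TfRmu/hu mice. Log2 alternatives were also counted over all cells and all members. Those that kept every mouse gave 432 values with the same call, 11 that gained a call and 19 that lost it. Those without 1 mouse gave 797, 4 and 38, with 1 reversed. Reversed means a change of sign where either of the fits compared was called. A change of sign between values not called was counted with the same call. For example, Cxcl9 between 4D9 and ATV:ISO ran from -1.10 to 0.55 without 1 mouse. A reversal came from leaving out 1 mouse or pool: Cxcl14 in WT;TfRmu/hu mice (0.82 without the ATV:ISO mouse of pool 2, with a leave-one-out range of -0.55 to 0.82) and Cxcl2 in cluster 4 of AppSAA;TfRmu/hu mice (1.22 without pool 3, with a range of -2.43 to 1.22). The causes were not tested.

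For members lower after ATV:4D9 than after ATV:ISO in AppSAA;TfRmu/hu mice, the count was 0 by DESeq2 and with thinned cells, and 0 to 1 without 1 mouse. Against 4D9 it was 0 by DESeq2, with thinned cells, without cells over 25000 UMIs, without cells with other markers (added version) and without the interferon cluster, 2 without the immediate early cluster, and 0 to 1 without 1 mouse. For members higher by genotype after ATV:4D9 it was 3 without the interferon cluster and 3 to 6 without 1 mouse. Members higher after ATV:4D9 in WT;TfRmu/hu mice numbered 3 to 5 without 1 mouse. In the interaction 1 member was higher without the immediate early cluster, 1 was lower in the added version, and 0 to 2 were lower without 1 mouse.

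With at least 50 cells per sum fewer clusters could be fitted. For ATV:4D9 against ATV:ISO in AppSAA;TfRmu/hu mice 7 pairs were higher and 3 lower in clusters 1, 2, 3 and 5, where sums of at least 20 cells gave 7 and 3. Against 4D9 it was 6 and 2 in clusters 1 to 3, where they gave 5 and 2, and by genotype after ATV:ISO 0 higher in clusters 0 and 3, where they also gave 0. By genotype after ATV:4D9 it was 9 higher in clusters 2 to 5, where they gave 6, with Cxcl10 and Cxcl14 in cluster 4 and Cxcl14 in cluster 2 gained. Without 1 pool the pairs lower against 4D9 numbered 1 to 4, those by genotype after ATV:ISO 0 to 1 in each direction, and those in WT;TfRmu/hu mice 1 to 2 higher and 0 to 1 lower.

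With the pool as a replicate block, 2 members were lower against 4D9 and 2 were higher in the interaction. Within clusters the blocked fit gave 1 lower pair in WT;TfRmu/hu mice, 1 higher between 4D9 and ATV:ISO, 3 higher and 1 lower by genotype after ATV:ISO, and 13 higher and 1 lower after ATV:4D9. The shares over all genes in the blocked fit are not given here, so these counts cannot be read against genes at large.

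Cxcl9, Cxcl2 and Cxcl14 had the fewest UMIs of the members, and some of their calls changed with thinning, with other settings or without single mice. Some calls from cluster sums of few cells changed too. Genes overlapping on the opposite strand, free RNA and the differences in Fc and brain exposure between the antibody arms could not be separated here.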
